A study of Homo sapiens with 14 samples.

Results

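The tumor suppressor p53 activates a set of target genes that act in feedback, cell cycle arrest, cell death and DNA repair. Described here are 10 well known targets other than CDKN1A and the BCL2 family: MDM2, TP53INP1, FAS, TNFRSF10B, PLK2, BTG2, ZMAT3, RRM2B, XPC and FDXR. They were taken by gene symbol from every library and are 10 of the 35075 symbols with a value. The rule used no measured value, but the genes were chosen with earlier results of these data known.

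The RNA came from a study of ursolic acid (UA) and digoxin, which compared both natural compounds as inhibitors of the nuclear receptor RORγ in cancer cells. C4-2B is a prostate cancer (PCa) line derived from LNCaP, and HCC70 is a triple-negative breast cancer (TNBC) line. C4-2B cells were treated for 24 or 48 h with 10 µM UA or with vehicle, and in a separate series with 100 nM digoxin or with vehicle. HCC70 cells were treated for 24 or 48 h with vehicle, 5 µM UA or 10 µM UA, which makes 8 C4-2B and 6 HCC70 libraries. All were grown in RPMI-1640 with fetal bovine serum, the labels give the genotype of all as WT, and 1 line stands for each cancer. There was 1 library per condition, so no value carries an error and no test was made. Treated libraries are described only as higher or lower than their vehicle.

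In unstressed cells p53 is kept low by MDM2, a ubiquitin ligase that marks p53 for degradation and is itself a p53 target, which closes a negative feedback loop. DNA damage and other stress free p53 from MDM2, and p53 then binds response elements near its target genes as a tetramer. Which targets respond differs between cell types, and several of them also answer to other transcription factors.

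Levels are FPKM, fragments scaled by transcript length and by the total of the library, a scale on which levels of different genes can be set side by side. A ratio is the log2 of treated over vehicle of the same line, series and time after adding 0.1 FPKM to both, so that 1 is a 2-fold difference. A gene entered a comparison when it was above 1 FPKM in either library, which all 10 targets did in C4-2B cells and 8 or 9 in HCC70 cells. Read totals are not given and could not be recovered, so the depth behind the values is unknown. Each library held 11210 to 12163 genes above 1 FPKM. Markers of the prostate lineage fitted the label of C4-2B, with KLK3 between 989 and 1971 FPKM, and those of basal breast cells that of HCC70, with KRT5 between 296.0 and 1511 FPKM and ESR1 at most 0.71 FPKM. TMPRSS2, also fixed as a prostate marker, was at 38.6 to 47.6 FPKM in HCC70 cells. Of the 6 basal markers, 3 were higher in the C4-2B library with UA at 48 h than in its vehicle (KRT17 3.89, KRT5 2.18 and KRT6B 1.23 FPKM, against at most 0.34 FPKM in the other C4-2B libraries) and 3 lower (KRT14, CDH3 and EGFR), and their part in the 48 h UA results was not tested. As these are bulk samples, fewer cells of a type and less RNA per cell cannot be told apart.

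To show what a p53 response element looks like near these genes, the window from 250 bases before to 50 bases after each annotated start (RefSeq, GRCh38.p14) was searched on both strands. The search used the p53 response element consensus, 2 half-sites of 10 bases with a spacer of 0 to 13 bases, and kept the core C and G of each half-site. Of the members, 7 had a window in the table, and 3 of these 7 held a match with at most 2 mismatches, as did 3.62% of 27305 genes. With at most 3 mismatches it was 5 of 7, against 15.3% of all genes. A gene was counted when any of its windows matched, and windows per gene were not matched between the targets and all genes. MDM2, FAS and FDXR, the genes with at most 2 mismatches, each had more than 1 window. Of all 35116 windows 2.93% held such a match. ZMAT3 and PLK2 each held a match with 3 mismatches, and that of ZMAT3 is not shown. The best match of each of the genes with at most 2 mismatches is shown, followed by PLK2. Each is in the direction of the gene's own strand and with the half-sites in capitals.
MDM2: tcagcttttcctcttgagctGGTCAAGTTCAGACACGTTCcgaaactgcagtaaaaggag
FAS: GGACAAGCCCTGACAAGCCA
FDXR: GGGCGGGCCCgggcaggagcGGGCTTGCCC
PLK2: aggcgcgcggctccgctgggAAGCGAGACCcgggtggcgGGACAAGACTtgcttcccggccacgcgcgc
The MDM2 stretch lies at chr12:68808903-68808962 on the plus strand, inside the gene but outside its exons, 74 bases before a downstream start. This is the internal promoter for which MDM2 is known as a p53 target. The FAS match is at chr10:88991309-88991328 (plus strand, in an exon of some transcripts), that of FDXR at chr17:74872996-74873025 (minus strand, in an exon 1 base before the RefSeq start) and the PLK2 stretch at chr5:58460194-58460262 (minus strand, upstream of the gene). BTG2 had no match in its window, and TP53INP1, TNFRSF10B and RRM2B were not searched. A match is a description of the letters only, since binding was not measured in these libraries.

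The p53 targets were first compared between digoxin and vehicle in C4-2B cells. At 24 h 9 of 10 were higher than vehicle, as were 61.9% of the 11896 genes compared, and 3 of 10 by at least 2-fold (BTG2, FAS and TP53INP1), where 2.52% of these genes were that much higher. None was lower by 2-fold (1.87% of genes), and 5 of 10 were higher and 0 lower by 1.5-fold (10.9% and 5.98% of genes). At 48 h all 10 were above vehicle (48.4% of genes), but 0 of 10 were higher or lower by 2-fold (2.69% and 3.42% of genes), and 4 of 10 were higher and 0 lower by 1.5-fold (9.28% and 11.2% of genes). The median ratio of the 10 targets was 0.57 at 24 h and 0.34 at 48 h, and that of all genes 0.12 and −0.02. With the 24 h ratios centred on the median of all genes, the median of the targets was 0.46 and the same 3 genes remained past 2-fold, at 1.72 for BTG2, 1.31 for FAS and 1.20 for TP53INP1. As no replicate exists, how much of this would recur in a second culture was not measured.

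**Figure D1:**
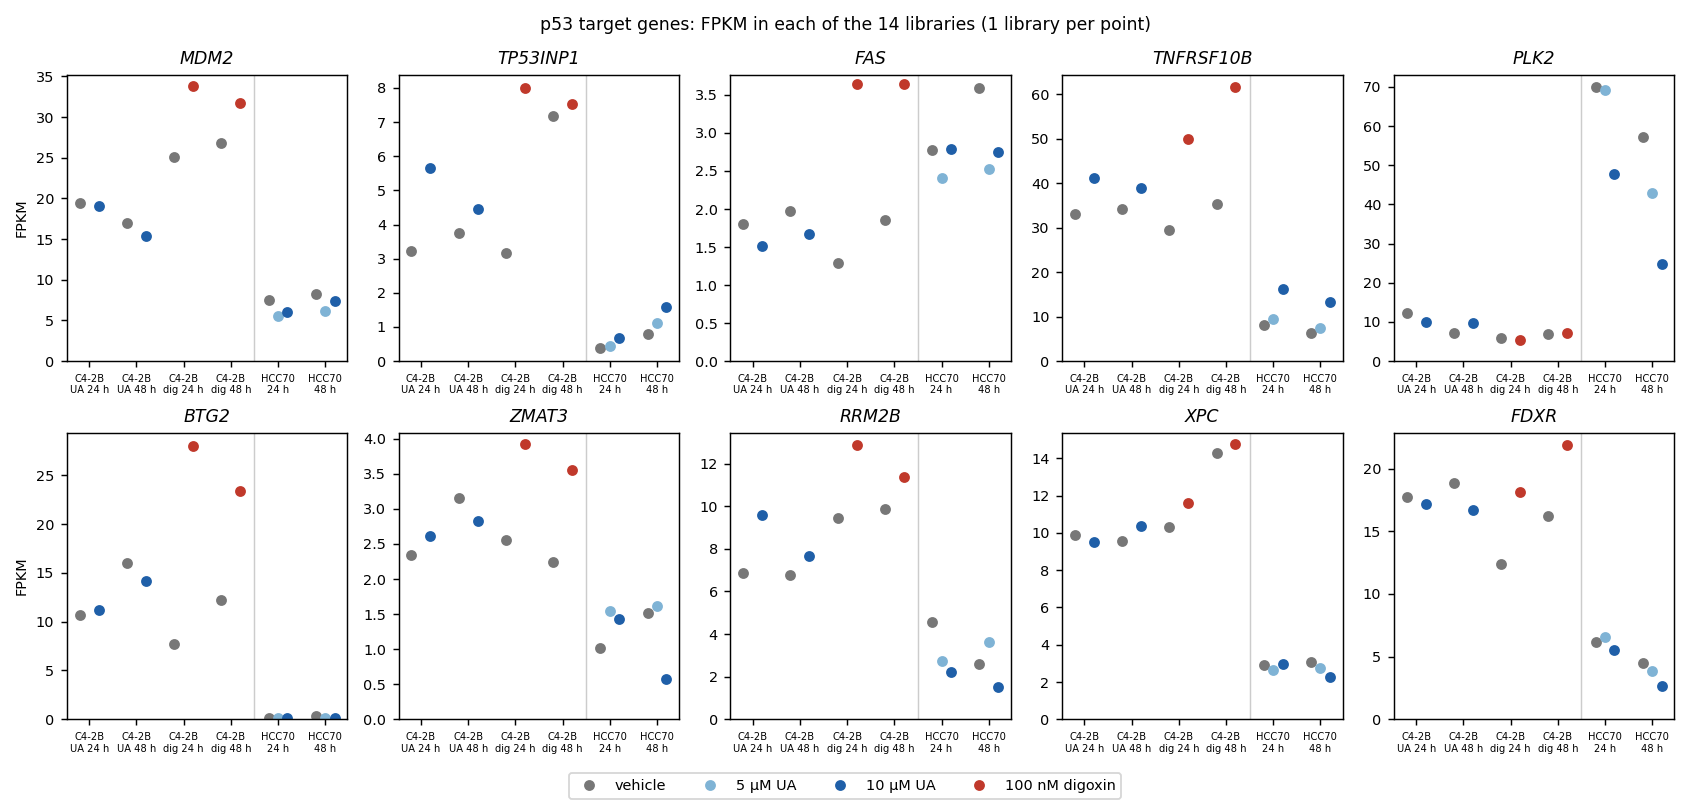
FPKM of each p53 target gene in the 14 libraries, 1 point per library, with C4-2B libraries left and HCC70 libraries right of the grey line; each axis starts at 0. BTG2, FAS, ZMAT3 and TNFRSF10B are highest in the digoxin libraries of C4-2B, BTG2 is at most 0.35 FPKM in HCC70, and PLK2 is highest in HCC70.

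Among the genes of cell cycle arrest, BTG2 (chr1:203305491-203309602) showed the highest ratio. It encodes an antiproliferative protein that binds the CCR4-NOT complex, which shortens the poly(A) tails of mRNAs. Its level went from 7.73 FPKM in vehicle to 28.0 FPKM with digoxin at 24 h, and from 12.2 to 23.4 FPKM at 48 h, which are log2 ratios of 1.84 and 0.93. Both digoxin libraries were above every C4-2B vehicle, the highest of which held 16.1 FPKM. PLK2 (chr5:58453982-58460139), a polo-like kinase of centriole duplication, went instead from 5.92 to 5.31 FPKM after 24 h and from 7.02 to 7.19 FPKM at 48 h. These ratios of −0.15 and 0.03 make PLK2 the target that moved least in the digoxin series together with XPC.

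FAS (chr10:88953813-89029605) and TNFRSF10B (chr8:23020133-23069031) encode death receptors, cell surface proteins that recruit FADD and caspase-8 when bound by FAS ligand or by TRAIL. FAS was at 1.29 and 1.85 FPKM in vehicle and at 3.65 FPKM in both digoxin libraries, ratios of 1.43 and 0.94. TNFRSF10B went from 29.6 to 49.9 FPKM after 24 h and from 35.2 to 61.6 FPKM at 48 h, ratios of 0.75 and 0.81. The digoxin libraries were thus the highest of C4-2B for both receptors, FAS starting from a low level and TNFRSF10B from a high one. TP53INP1 (chr8:94925972-94949378), a nuclear protein that promotes p53 phosphorylation and apoptosis and also takes part in autophagy, went from 3.16 to 8.01 FPKM at 24 h, a ratio of 1.31. At 48 h it was at 7.18 FPKM in vehicle and 7.54 FPKM with digoxin, a ratio of 0.07. Here it was the vehicle that differed between the times, by 1.16 on the log2 scale.

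In the feedback arm, MDM2 (chr12:68808177-68845544) went from 25.1 to 33.8 FPKM after 24 h and from 26.8 to 31.7 FPKM at 48 h, ratios of 0.43 and 0.24. ZMAT3 (chr3:178960121-179072215), a zinc finger protein that binds RNA, went from 2.55 to 3.92 and from 2.25 to 3.56 FPKM, ratios of 0.60 and 0.64. Both were higher with digoxin at both times, and neither passed 2-fold.

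None of the targets that serve metabolism and repair passed 1.5-fold. RRM2B (chr8:102204502-102238961), the p53-inducible small subunit of ribonucleotide reductase that supplies nucleotides for DNA repair, went from 9.45 to 12.9 FPKM after 24 h and from 9.85 to 11.4 FPKM at 48 h. Its ratios were 0.44 and 0.20. FDXR (chr17:74862497-74873031), the mitochondrial ferredoxin reductase, went from 12.4 to 18.1 and from 16.2 to 21.9 FPKM, ratios of 0.55 and 0.43. XPC (chr3:14145147-14178621), which recognises DNA damage in nucleotide excision repair, was at 10.3 and 11.6 FPKM at 24 h and at 14.3 and 14.8 FPKM at 48 h, ratios of 0.17 and 0.04. XPC is also the target whose counting is least certain, as 24.6% of its exon bases are shared with the antisense gene XPC-AS1. Whether the authors counted by strand is not stated, and smaller overlaps were present for TNFRSF10B with RHOBTB2 (7.52%) and TP53INP1 with NDUFAF6 (3.99%). XPC also shared 8.91% with a further antisense gene, and MDM2 up to 9.45% and FAS up to 6.48% with genes on the opposite strand. On the same strand MDM2 shared 5.29% and FAS 0.566% with another gene, which counting by strand would not separate.

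At both times 9 of 10 targets were higher with digoxin by any amount, as were 38.9% of all genes, and BTG2, FAS, TNFRSF10B and ZMAT3 by at least 1.5-fold, as were 3.74% of genes. For 7 of 10 (BTG2, FAS, MDM2, RRM2B, TNFRSF10B, TP53INP1 and ZMAT3) both digoxin libraries lay above all 4 C4-2B vehicles, which held for 17.3% of genes, and 0 of 10 lay below all of them (8.9%). When the 2 UA libraries of C4-2B were added to the vehicles, 7 of 10 were still above, against 15.7% of genes. The 2 C4-2B series were deposited as separate tables, the digoxin tables name no unit, and a level set across them therefore rests on the methods' statement of FPKM.

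**Figure D2:**
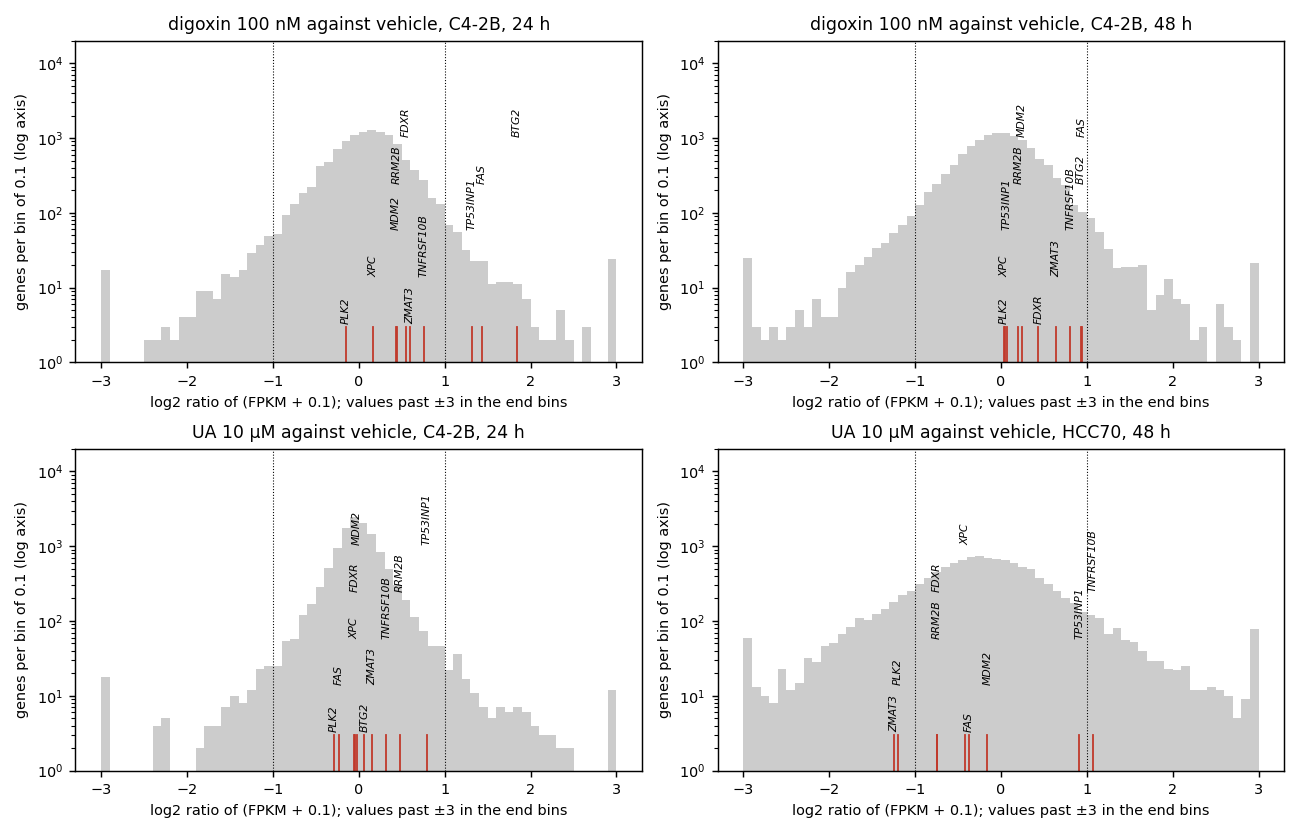
Grey bars count genes by log2 ratio to vehicle (horizontal axis) on a log vertical axis, for digoxin at 24 and 48 h, for UA in C4-2B at 24 h and for 10 µM UA in HCC70 at 48 h; red ticks mark the p53 targets that passed the filter and dotted lines mark 2-fold. With digoxin at 24 h BTG2, FAS and TP53INP1 lie right of the 2-fold line, while with UA in C4-2B no target does.

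The vehicles show how far the targets lay apart without a compound. In the digoxin series the 48 h vehicle was above the 24 h vehicle for 9 of 10 targets (65.7% of genes), for 1 of them by 2-fold (TP53INP1, where 3.76% of genes were that much higher), with BTG2 at 0.66 and FAS at 0.49. In the UA series the corresponding ratios ran from −0.78 for PLK2 to 0.58 for BTG2, none past 2-fold (1.48% higher and 0.944% lower of all genes). The vehicles of the 2 series at 24 h differed by 2-fold for PLK2, which was at 12.2 FPKM in the UA series and 5.92 FPKM in the digoxin series (6.05% of genes were that much lower). The 24 h digoxin ratios of BTG2, FAS, TP53INP1, TNFRSF10B and ZMAT3 were larger in size than the ratio between any 2 of the 4 C4-2B vehicles for the same gene (6 pairs), and those of the other 5 targets were not. At 48 h this held for FAS, TNFRSF10B and ZMAT3, while BTG2 differed by up to 1.05 between vehicles. The share of all genes for which this held was not computed, so these counts have no background to be read against. Against the 24 h vehicle of the other series FAS was at 0.98 with digoxin, just short of 2-fold, and PLK2 at −1.18.

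With UA at 10 µM none of the same genes differed by 2-fold from vehicle in C4-2B cells. At both times 5 of 10 were higher and 5 lower, where 47.2% of genes were higher at 24 h and 52% at 48 h. In either direction 0 of 10 passed 2-fold, where 1.28% of genes were higher and 1.04% lower at 24 h and 1.75% and 1.02% at 48 h. The median ratio of the targets was 0.02 at 24 h and −0.01 at 48 h. Against the vehicle of the digoxin series the 24 h median was 0.34, with PLK2 at 0.74 and BTG2 at 0.53, and the 48 h median −0.05, so that the 24 h value depends on which vehicle is used. MDM2 was at 19.4 FPKM in vehicle and 19.1 FPKM with UA at 24 h, and at 16.9 and 15.4 FPKM at 48 h. BTG2 was at 10.7 and 11.2 FPKM at 24 h and at 16.1 and 14.2 FPKM at 48 h. FAS was slightly below vehicle at both times, with 1.80 and 1.52 FPKM and then 1.98 and 1.67 FPKM.

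The exception in size was TP53INP1, which went from 3.22 to 5.64 FPKM at 24 h, a ratio of 0.79 and the only target higher by 1.5-fold (3.72% of genes), while 0 were lower (3.35%). At 48 h 0 of 10 were higher or lower by 1.5-fold (4.92% and 3% of genes). TP53INP1 was then at 3.75 and 4.44 FPKM, a ratio of 0.24. RRM2B went from 6.86 to 9.59 FPKM after 24 h and from 6.75 to 7.67 FPKM at 48 h, ratios of 0.48 and 0.18. TNFRSF10B was at 33.0 FPKM in vehicle and 41.3 FPKM with UA at 24 h, and at 34.2 and 38.9 FPKM at 48 h, ratios of 0.32 and 0.19. It was the only target for which both UA libraries lay above all 4 C4-2B vehicles, as did 5.91% of genes, and none lay below all of them (7.69%).

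The remaining targets had no common direction with UA in C4-2B. ZMAT3 was at 2.34 and 2.62 FPKM at 24 h and at 3.16 and 2.83 FPKM at 48 h. XPC was at 9.86 and 9.50 FPKM and then at 9.55 and 10.4 FPKM, and FDXR at 17.7 and 17.2 FPKM and then at 18.8 and 16.7 FPKM. PLK2 was below vehicle at 24 h (12.2 and 9.97 FPKM) and above it at 48 h (7.07 and 9.74 FPKM), and its ratios of −0.29 and 0.46 lay within the −0.78 between the vehicles of the 2 times.

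**Figure D3:**
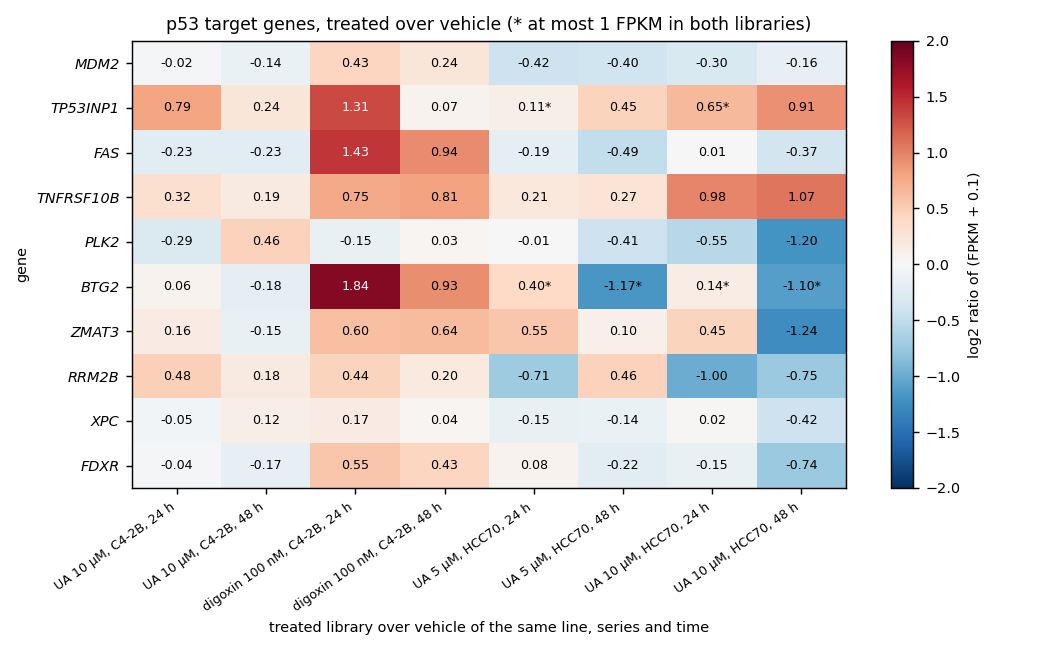
Log2 ratio to the vehicle of the same line, series and time (colour and printed value, on FPKM + 0.1) for each target gene (rows) and each treated library (columns); an asterisk marks ratios of genes at or below 1 FPKM in both libraries, which entered no count. TNFRSF10B is above 0 in every column, and the digoxin column at 24 h holds the highest value, 1.84 for BTG2.

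HCC70 cells held most of the targets at a lower level to begin with. Against the UA-series vehicles of C4-2B, 8 of 10 were lower and 2 higher in HCC70 vehicle at each time. Of all genes 40% were higher at 24 h and 38.3% at 48 h. By 2-fold 7 of 10 were lower at 24 h (31.3% of genes) and 8 of 10 at 48 h (33.7% of genes). BTG2 was at 0.09 and 0.35 FPKM in the HCC70 vehicles, and at 0.10 to 0.15 FPKM in the UA libraries, so that no ratio is read from it. TP53INP1 was at 0.39 and 0.80 FPKM and ZMAT3 at 1.02 and 1.51 FPKM in these vehicles. PLK2 went the other way, with 69.9 and 57.1 FPKM in HCC70 against 12.2 and 7.07 FPKM in C4-2B, ratios of 2.51 and 3.0 (20.3% and 19.2% of genes were 2-fold higher). These cells also differ in tissue and in much else.

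In HCC70 cells a target passed 2-fold only with 10 µM UA at 48 h. At 5 µM 0 of the 8 targets compared at 24 h and 0 of 9 at 48 h passed 2-fold, where 1.11% of genes were higher at each time and 0.644% and 1.23% lower. At 10 µM and 24 h it was again 0 of 8 (2.03% of genes higher and 1.74% lower). At 10 µM and 48 h 1 of 9 was higher by 2-fold (TNFRSF10B, 6.79% of genes) and 2 of 9 were lower (PLK2 and ZMAT3, 13.3% of genes). The median ratio of the targets there was −0.42 and that of all genes −0.20. Centred on the latter, TNFRSF10B was at 1.27, TP53INP1 at 1.11, ZMAT3 at −1.04 and PLK2 at −1.0, the last just short of 2-fold. With 5 µM 1 target was lower by 1.5-fold at 24 h (RRM2B, 2.18% of genes) and none higher (3.82%), and at 48 h none was higher (3.82%) or lower (4.82%). With 10 µM 1 was higher (TNFRSF10B, 6.27%) and 1 lower (RRM2B, 7.06%) at 24 h, and 2 were higher (13.6%) and 4 lower (28.1%) at 48 h. The 2 doses were compared with the same vehicles.

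TNFRSF10B had the highest ratio of the targets compared at 10 µM, at both times, but not at 5 µM. Its level at vehicle, 5 µM and 10 µM was 8.21, 9.48 and 16.3 FPKM at 24 h and 6.24, 7.54 and 13.2 FPKM at 48 h. The ratios were 0.21 and 0.98 at 24 h and 0.27 and 1.07 at 48 h. At both times it was thus ordered by dose, and both 10 µM libraries lay above the 4 other HCC70 libraries, as did 11.3% of genes. The direct ratio of 10 over 5 µM was 0.77 at 24 h and 0.80 at 48 h. TP53INP1 had the same order at a low level, with 0.39, 0.43 and 0.67 FPKM at 24 h and 0.80, 1.13 and 1.59 FPKM at 48 h. Only at 48 h was it above the 1 FPKM limit, with ratios of 0.45 at 5 µM and 0.91 at 10 µM.

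PLK2, high in these cells, was lower with dose. It was at 69.9, 69.3 and 47.7 FPKM at 24 h and at 57.1, 43.0 and 24.8 FPKM at 48 h. The 48 h ratios were −0.41 at 5 µM and −1.20 at 10 µM. FDXR at 48 h had 4.49, 3.84 and 2.64 FPKM, a ratio of −0.74 at 10 µM, after 6.19, 6.53 and 5.56 FPKM at 24 h. Both genes were therefore lowest, among HCC70 libraries, with 10 µM UA at 48 h.

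RRM2B was at 4.57, 2.75 and 2.24 FPKM at 24 h, ratios of −0.71 and −1.0, the latter just short of 2-fold. At 48 h it was at 2.60, 3.61 and 1.51 FPKM, ratios of 0.46 and −0.75. The 5 µM libraries were thus on opposite sides of their vehicles, and the vehicles differed by −0.79 between the times. RRM2B was the only target for which both 10 µM libraries lay below the 4 other HCC70 libraries, as did 15.8% of genes. ZMAT3 was at 1.02, 1.54 and 1.43 FPKM at 24 h and at 1.51, 1.62 and 0.58 FPKM at 48 h. Its ratio of −1.24 with 10 µM at 48 h followed 0.45 at 24 h, all at levels near the 1 FPKM limit.

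MDM2, FAS and XPC stayed within 1.5-fold of vehicle in all 4 UA libraries of HCC70. MDM2 was at 7.52, 5.61 and 6.10 FPKM at 24 h and at 8.23, 6.22 and 7.36 FPKM at 48 h, each treated library below its vehicle. FAS was at 2.77, 2.41 and 2.79 FPKM and then at 3.59, 2.53 and 2.75 FPKM. XPC was at 2.92, 2.62 and 2.96 FPKM and then at 3.06, 2.77 and 2.27 FPKM. For none of these genes did the levels follow the dose at both times.

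Set against each other, the 6 comparisons with 10 µM UA or digoxin share no library. TNFRSF10B was above vehicle in all 6, the only one of the 8 targets that passed the filter in each, where 4.22% of 10034 genes were higher in all. No target was lower in all 6 (4.94% of genes). TNFRSF10B is known to be induced also by CHOP, the product of DDIT3, in the integrated stress response. The 8 stress genes listed (ATF4, DDIT3, TRIB3, CHAC1, ASNS, SESN2, DDIT4 and ATF3) were chosen as genes with which TNFRSF10B is known to move. All 8 were above vehicle in 7 of the 8 treated comparisons, in which 38.3% to 61.9% of all genes were. With digoxin at 48 h 2 of 8 were higher and 6 of 8 lower (48.4% of all genes were higher), while TNFRSF10B was at 0.81. DDIT3 was at 51.3 FPKM in that vehicle and 39.2 FPKM with digoxin, after 15.1 and 25.8 FPKM at 24 h. All 8 stress genes were higher by 2-fold in the 48 h than in the 24 h vehicle of the digoxin series (3.76% of all genes). This 48 h vehicle is the base of every 48 h digoxin ratio. In HCC70 cells DDIT3 went from 4.25 to 15.2 FPKM after 24 h and from 2.74 to 27.0 FPKM at 48 h with 10 µM UA, beside the TNFRSF10B ratios of 0.98 and 1.07. In C4-2B cells it went from 13.7 to 53.03 and from 16.3 to 58.4 FPKM with UA, beside TNFRSF10B ratios of 0.32 and 0.19. The part of these genes in the level of TNFRSF10B was not tested.

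The targets were also set beside a longer list of 50 other genes that p53 is known to activate, of which 49 were found in the files. With digoxin 42 passed the filter at each time. At 24 h 9 of these 42 were higher by 2-fold and 0 lower (2.52% and 1.87% of all genes), with a median of 0.41. At 48 h 5 were higher and 0 lower (2.69% and 3.42% of all genes), with a median of 0.29. CDKN1A, the CDK inhibitor p21, went from 24.4 to 77.0 FPKM after 24 h and from 26.7 to 95.3 FPKM at 48 h, ratios of 1.66 and 1.83. KITLG, the ligand of the receptor KIT, went from 1.75 to 4.75 and from 1.09 to 3.37 FPKM, ratios of 1.39 and 1.54. CDKN1A and KITLG were the 2 genes of the list past 2-fold at both times, where 0.604% of all genes were. For CDKN1A the size of the ratio depends on the vehicle used. Its digoxin-series vehicles lay below the UA-series vehicles (47.3 and 47.2 FPKM), with ratios of −0.95 at 24 h and −0.82 at 48 h. Both digoxin libraries lay above all 4 C4-2B vehicles for 16 of 42 genes of the list (17.3% of all genes) and below all for 1 of 42 (8.9%).

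With UA in C4-2B cells 1 gene of the longer list was higher by 2-fold at each time (1.28% and 1.75% of all genes) and 0 were lower (1.04% and 1.02%). It was GDF15, a secreted stress cytokine, which went from 139 to 615 FPKM after 24 h and from 421 to 957 FPKM at 48 h (0.291% of all genes were past 2-fold higher at both times). CDKN1A was at 47.3 and 59.3 FPKM at 24 h and at 47.2 and 51.5 FPKM at 48 h, ratios of 0.33 and 0.12.

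In HCC70 cells at 10 µM UA 3 of 41 genes of the longer list were higher by 2-fold and 0 lower at 24 h (2.03% and 1.74% of all genes). At 48 h 9 were higher and 4 lower (6.79% and 13.3% of all genes). GDF15, BBC3 and SESN2 were higher by 2-fold at both times, as were 1.17% of all genes. BBC3, which encodes the BH3-only protein PUMA, went from 3.24 to 10.0 FPKM and from 1.73 to 20.9 FPKM. SESN2, a sestrin that restrains mTORC1, went from 8.07 to 22.3 FPKM and from 7.16 to 33.1 FPKM. The highest ratios at 48 h were 4.35 for GDF15, 3.52 for BBC3 and 2.30 for PLK3, a polo-like kinase, and the lowest were −2.57 for TRIM22, −2.51 for KITLG and −1.72 for CMBL. CDKN1A went from 173 to 328 FPKM after 24 h and from 86.6 to 373 FPKM at 48 h, ratios of 0.92 and 2.11. For this gene the HCC70 vehicle at 48 h was itself below that at 24 h, by −1.0. The list thus spread in both directions, with a median of 0.14 at 48 h, and SESN2 is also in the stress list. KITLG lay on opposite sides in the 2 settings, above vehicle with digoxin in C4-2B and below it with 10 µM UA in HCC70.

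**Figure D4:**
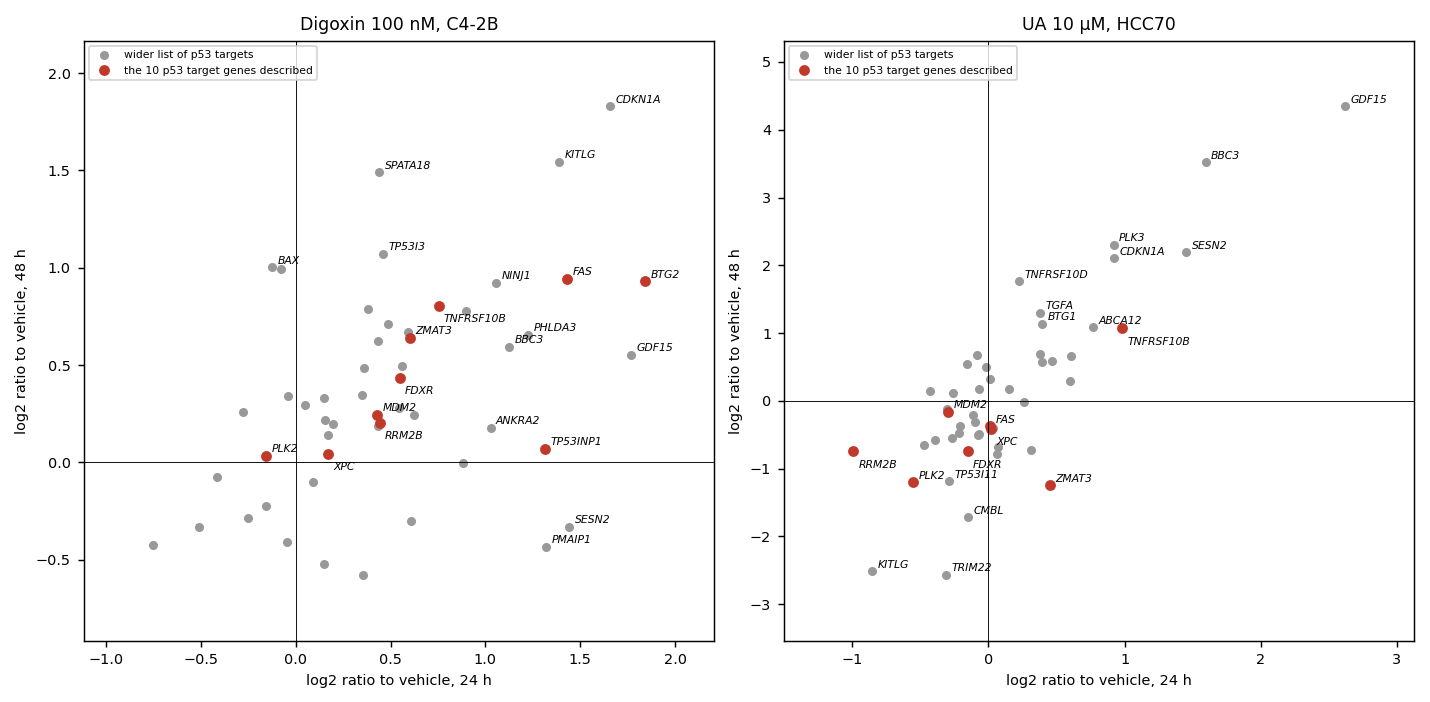
Log2 ratio to vehicle at 24 h (horizontal) and 48 h (vertical) for genes that passed the filter at both times, with digoxin in C4-2B (left) and 10 µM UA in HCC70 (right); red points are the 10 targets described (TP53INP1 and BTG2 did not pass in HCC70) and grey points the longer list, with genes past 2-fold named. With digoxin BTG2, FAS and TNFRSF10B lie in the upper right with CDKN1A and KITLG, and with UA in HCC70 TNFRSF10B lies in the upper right while RRM2B and PLK2 lie in the lower left.

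MDM4, the MDM2 relative that inhibits p53, was at 2.59 and 1.42 FPKM in vehicle and digoxin at 24 h and at 2.27 and 1.85 FPKM at 48 h, ratios of −0.82 and −0.28. With 10 µM UA its ratio was instead 0.41 and 0.91 in C4-2B and 0.65 and 0.88 in HCC70. MDM4 thus stood below the vehicle of its own series in both digoxin libraries and above it in all 4 libraries with 10 µM UA. In C4-2B the digoxin-series vehicles were above the UA-series vehicles by 0.68 at 24 h and 0.69 at 48 h. Digoxin at 48 h (1.85 FPKM) was above the UA-series vehicle (1.37 FPKM), and UA at 24 h (2.13 FPKM) below the digoxin-series vehicle (2.59 FPKM). Digoxin at 24 h and UA at 48 h kept their side against the other vehicle. With 5 µM UA in HCC70 the ratios were −0.40 at 24 h and 0.21 at 48 h.

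The known partners of the targets show what the receptors and enzymes had beside them. FASLG, the ligand of FAS, was listed at 0 in every library. TNFSF10, which encodes the TNFRSF10B ligand TRAIL, went from 59.8 to 31.2 FPKM after 24 h and from 85.5 to 14.9 FPKM at 48 h with 10 µM UA in HCC70, ratios of −0.93 and −2.51. There the ligand was lower and the receptor TNFRSF10B higher than vehicle. In C4-2B cells TNFSF10 was between 0.82 and 2.30 FPKM. CFLAR, which encodes the caspase-8 inhibitor FLIP, went from 10.3 to 17.2 FPKM with digoxin at 24 h, a ratio of 0.73, and was at 0.13 at 48 h. RRM2, the S phase counterpart of RRM2B, was at 52.2 FPKM in vehicle and 21.4 FPKM with 10 µM UA in HCC70 at 48 h, and the large subunit RRM1 had a ratio of −1.01. FDX1 and FDX2, the ferredoxins that FDXR reduces, had ratios of −1.12 and −1.86 in that library, and the kinases PLK1 and PLK4 of −1.75 and −1.60. In the same library 7 of the 19 partners compared were lower by 2-fold (13.3% of all genes) and 3 were higher (6.79%). The latter were the kinase PLK3 (a ratio of 2.30), BTG1 (1.14) and TP53INP2, the autophagy relative of TP53INP1, which went from 7.40 to 21.3 FPKM. The other partners compared there were FADD, CASP8, CFLAR, RAD23B, CETN2, DDB2, TOB1, CNOT7 and MDM4. Their ratios ran from −0.62 for CASP8 to 0.88 for MDM4.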

How the data were processed

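RNA was sequenced from 8 C4-2B and 6 HCC70 libraries, each made by the authors from 1 µg of total RNA with an Illumina kit. The deposited values are FPKM to 2 decimals, which the authors computed with Cufflinks after alignment to hg38 (BWA and Bowtie are also in the submitters' processing notes), with versions not given in the sources used here. The digoxin tables list 26237 gene IDs and the others 35069, with 26112 shared. Symbols with several IDs were summed. Depth is unknown, since the low values did not fall on whole fragments (21.8 to 30.4% within 0.1, against 20% if spread evenly). No library was a copy, since in each of 91 pairs identical values made up at most 0.374%.

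Samples were grouped by title. Ratios were log2 of FPKM + 0.1 for genes above 1 FPKM in either library, and a gene was called past 2-fold, with no test because of 1 library per condition. The rule named all 10 targets, CDKN1A, MDM4, the partners, and of the longer list the genes past 2-fold at both times and the 3 highest and 3 lowest with 10 µM UA in HCC70 at 48 h. The members and lists were chosen with earlier results of these data known. DDIT3 and CFLAR come from the stress and partner lists. Alternatives were pseudocounts of 1 and 0.01 FPKM, no filter and a filter above 5 FPKM, and centring on the median or a trimmed mean (30% at each end). Thresholds of 1.5- and 3-fold, another vehicle, and the highest ID of a symbol in place of the sum were also used. Setting the digoxin libraries against the UA libraries too was added after seeing the data. The counting was tested on simulated data. Python 3.11.15, numpy 2.4.6, pandas 2.3.3 and matplotlib 3.10.9 were used. Gene positions are from GENCODE on hg38, and promoter windows from RefSeq (GRCh38.p14). Of the listed genes, 1 is not reported here and was left out of the counts.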

Additional observations from a re-analysis of the deposited data

Results flagged for a closer look

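RRM2B differed in direction between the lines with 10 µM UA. Both C4-2B libraries were above their vehicles (0.48 and 0.18) and both HCC70 libraries below theirs (−1.0 and −0.75). The mean ratios of 0.33 and −0.87 lie 1.20 apart on the log2 scale, and the difference was not tested, since each condition has 1 library. Against the vehicle of the digoxin series the C4-2B ratios of RRM2B were 0.02 at 24 h and −0.36 at 48 h, so the opposite direction depends on the vehicle used, and the HCC70 vehicles themselves differed by −0.79 between 24 and 48 h.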

How the results depend on the processing

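No paired analysis was possible because each condition has 1 library and no result comes from a test. Of the median ratios of the targets, 58 of 64 moved by less than the SD of such medians over 5 comparisons between vehicles (0.172). The others were, with the vehicle of the other series, 0.34 for UA in C4-2B at 24 h, 0.76 for digoxin at 24 h and 0.68 at 48 h, with a filter above 5 FPKM (3 targets left) −0.40 for 5 µM and −0.16 for 10 µM UA in HCC70 at 48 h, and with centring on the median −0.21 for the latter. Of the ratios of single targets 524 moved by less than an SD and 39 by more, and no target past 2-fold changed sign. This SD was taken over the targets, from the 48 h over 24 h ratio of the vehicles, and is not a spread of replicates. The filter settings leave the ratio of a gene unchanged, and no filter leaves a median unchanged where all 10 targets passed. Part of the 524 and of the 58 was therefore fixed in advance. With a threshold of 1.5-fold 1 target was higher with UA in C4-2B at 24 h, 5 with digoxin at 24 h and 4 at 48 h, 1 was lower with 5 µM UA in HCC70 at 24 h, 1 was higher and 1 lower with 10 µM at 24 h, and 2 were higher and 4 lower at 48 h. With 3-fold 1 was higher with digoxin at 24 h, and 0 higher and 0 lower with 10 µM in HCC70 at 48 h. In that last comparison 0 were higher and 1 lower with a pseudocount of 1 FPKM, 1 was lower with a filter above 5 FPKM, 2 were higher and 1 lower after centring on the median, and 2 were higher after centring on the trimmed mean. Against the 24 h vehicle TNFRSF10B (13.2 against 8.21 FPKM) and ZMAT3 (0.58 against 1.02 FPKM) fell short of 2-fold there. TP53INP1 (1.59 against 0.39 FPKM) was then past it upward, and RRM2B (1.51 against 4.57 FPKM) and FDXR (2.64 against 6.19 FPKM) downward. With 10 µM at 24 h 1 was higher after either centring or against the vehicle of the other time, and 1 lower with a pseudocount of 0.01 FPKM. With 5 µM at 48 h 1 was lower with no filter and 1 higher against the vehicle of the other time. With the vehicle of the other series 2 were higher, without FAS, and 1 lower with digoxin at 24 h, and a filter above 5 FPKM also left 2 higher, as it removed FAS. Unknown depth limits what can be said of genes near 1 FPKM, such as ZMAT3 and TP53INP1 in HCC70.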
